A study of Penicillium oxalicum with 9 samples.

Results

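Transcript levels of a Penicillium oxalicum strain without the gene rcoA were compared with those of the wild type. RcoA belongs to the Tup1 family of corepressors, proteins that do not bind DNA themselves. In budding yeast, Tup1 forms a complex with Ssn6, also called Cyc8, and is brought to promoters by DNA-binding repressors, where it lowers transcription. In filamentous fungi such as Aspergillus nidulans the corresponding protein has been linked to growth, conidiation and secondary metabolism, the making of small molecules such as alkaloids and pigments that growth does not require.

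The comparison used 3 libraries of the strain with rcoA deleted and 3 libraries of the wild type strain 114-2. The same table held 3 libraries of a strain with clrB deleted, which entered the fit only to share its estimate of spread and are shown where they add a value. Conidia were precultured for 22 h at 30 °C with 2% glucose, and the mycelia were then kept for 24 h in Mandel's medium, with cellulose and wheat bran, 1% of each, as the carbon source. The labels name no complemented strain, do not say how many transformants were used, and do not say whether libraries of 1 strain came from separate cultures. The p-values thus rest on the spread among libraries, and this spread may be a technical one.

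All 9907 genes of the deposited table were considered, and 9097 with a mean of at least 1 FPKM over the 9 libraries were tested. FPKM are fragments of a gene, divided by gene length and by the library's mapped fragments. Per the labels, however, the libraries held short tags cut at a fixed site of each transcript, so levels of different genes are set side by side with that reservation, which does not touch a ratio within 1 gene. Log2 changes are the rcoA deletion minus the wild type on the log2(FPKM + 1) scale, with their standard error (SE), and understate the change of genes with low values. Tests were limma's, two-sided, with Benjamini-Hochberg adjusted p under 0.05 as the call. The sum of FPKM lay between 776855 and 820648 per library, and 9597 to 9629 genes were above 0 in the rcoA deletion libraries, against 9702 to 9724 in the wild type libraries. Log2 values correlated at 0.984 to 0.993 within the rcoA deletion, at 0.984 to 0.991 within the wild type and at 0.786 to 0.804 between both strains. Within the clrB deletion, whose libraries share in the estimate of spread, they correlated at 0.946 to 0.991. No counts were used, and the absolute depth of the libraries is unknown.

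The locus of rcoA is not named in the labels. Among 4 genes described as the glucose repression regulator TUP1, PDE_01024 read 2.08, 2.67 and 3.38 FPKM in the rcoA deletion, against 67.3, 65.5 and 70.7 FPKM in the wild type. It was the one with the largest change, 25.0-fold lower (log2 change -4.23, SE 0.12, limma adjusted p = 2.85e-08). Its rcoA deletion libraries were above 0, and whether it is the deleted gene cannot be read from the labels. Of the other genes with this description, PDE_08941 was 1.62-fold lower, and PDE_00660 and PDE_07598 were 1.33-fold and 1.52-fold higher. The call of PDE_07598 was lost when either rcoA deletion replicate 2 or 3, or wild type replicate 1 or 3, was left out.

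In the rcoA deletion 2762 genes were higher, which is 30.4% of those tested, and 3104 were lower, which is 34.1%. The direction of change differed with size. Among called genes, 1101 were higher and 1358 lower by at least 2-fold, 93 higher and 228 lower by at least 8-fold, and 4 higher and 23 lower by at least 64-fold. Shares of calls differed between levels, with no steady order. Of the 1936 tested genes with a mean under 10 FPKM over both strains, 20.7% were higher and 39.9% lower, whereas of the 1227 genes from 100 to 1000 FPKM, 43% were higher and 27.7% lower. Of the 5834 genes from 10 to 100 FPKM 30.8% were higher and 33.5% lower, and of the 100 genes of at least 1000 FPKM 40% were higher and 38% lower. The balance of all calls moved with the scaling, from 47.1% higher as deposited to 50.5% with trimmed mean factors. It was 54% with quantile normalization and 52.7% with equal medians. The counts of at least 16-fold changes, 36 higher and 111 lower as deposited, were 39 and 110 with equal medians and 36 and 97 with quantile normalization.

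**Figure D1:**
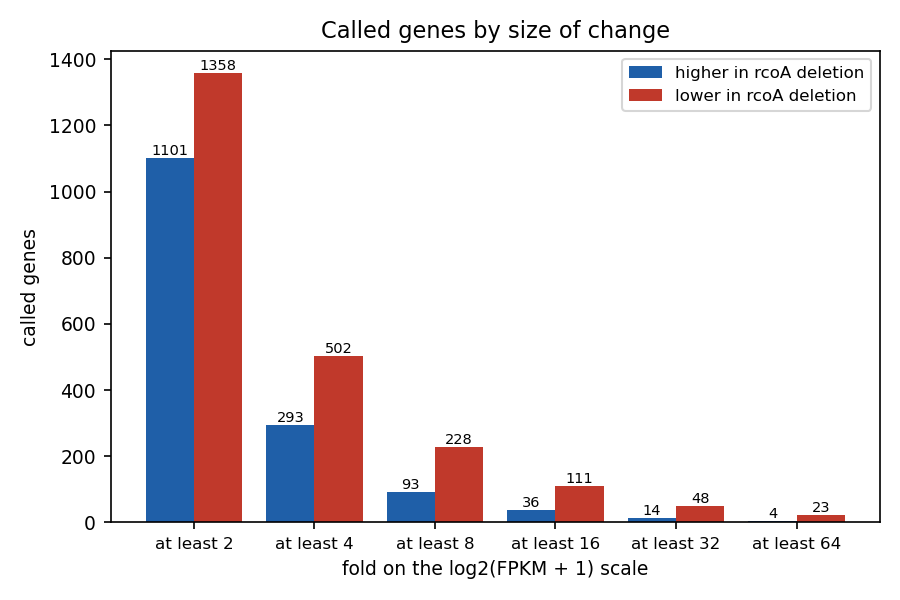
Called genes (vertical axis, number of genes) by the least size of their change on the log2(FPKM + 1) scale (horizontal axis), higher in the rcoA deletion in blue and lower in red. The lower genes outnumber the higher ones in each size class, by 23 to 4 at 64-fold and over.

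Among the genes with at least 1 FPKM in both strains, the largest rise was that of PDE_07004, described as a mitochondrial enoyl-CoA reductase, an enzyme of fatty acid synthesis. It read 1044, 1167 and 1163 FPKM in the rcoA deletion, against 5.63, 4.02 and 4.50 FPKM in the wild type, 238-fold higher (log2 change 7.63, SE 0.35, limma adjusted p = 2.58e-07). PDE_02505, described as a small heat shock protein of the HSP20 family, read 2800, 4234 and 4431 FPKM in the rcoA deletion, against 40.3, 35.0 and 44.1 FPKM in the wild type, 96.0-fold higher. PDE_01573, described as a chitinase, averaged 855 FPKM in the rcoA deletion and 15.7 FPKM in the wild type, 54.6-fold higher. Each of these genes was low in all wild type libraries and high in all rcoA deletion libraries, since only genes without overlap were ranked. PDE_01376 and PDE_01922 have no description and were 67.0-fold and 47.2-fold higher.

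The largest fall in this group was that of PDE_09761, a gene of tyrosine breakdown that is described with its neighbours below, 612-fold lower. PDE_03255, described as the alpha subunit of the nascent polypeptide-associated complex, which binds new chains at the ribosome, read 3.35, 4.48 and 7.79 FPKM in the rcoA deletion, against 1258, 1376 and 2190 FPKM in the wild type, 309-fold lower. PDE_01057, described as hydroxymethylbilane synthase, an enzyme of heme synthesis, read 1.39, 1.63 and 2.16 FPKM in the rcoA deletion, against 235, 299 and 295 FPKM in the wild type, 160-fold lower. PDE_01261, described as an endoglucanase, which cuts cellulose, read 6.91, 9.07 and 10.36 FPKM in the rcoA deletion, against 1151, 1121 and 713 FPKM in the wild type, 113-fold lower (log2 change -6.65, SE 0.41, limma adjusted p = 1.58e-06). The 10 largest falls also held genes of no known role by description, among them PDE_08743, PDE_06300 and PDE_04101, which were 150-fold, 163-fold and 121-fold lower. PDE_04101 read 39.0, 31.9 and 35.1 FPKM in the rcoA deletion, against 4917, 3733 and 4208 FPKM in the wild type.

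A class of genes was expressed in 1 strain and close to 0 in the other. The thresholds were a mean under 0.5 FPKM in 1 strain and of at least 10 FPKM in the other. Near 0 in the rcoA deletion and expressed in the wild type were 60 genes, 0.606% of the table. Near 0 in the wild type and expressed in the rcoA deletion were 2 genes, 0.0202% of the table. These genes were picked by the values that separate them, so their levels are given as a description and not tested. In bulk mycelia, fewer cells that express a gene and less of its RNA per cell cannot be told apart.

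Of the 60 genes, 4 were listed at 0 in all rcoA deletion libraries and 31 in at least 1 of them, and the highest value in any rcoA deletion library was 0.89 FPKM. Their wild type means ran from 10.1 to 373 FPKM with a median of 23.8, and the lowest single wild type value was 3.66 FPKM, in PDE_06621. The threshold cut through a continuum on the expression side. Between 10 and 12 FPKM in the wild type there were 9 members, and 6 more genes near 0 in the rcoA deletion lay from 8 to 10 FPKM in the wild type. On the near-0 side, 4 members had rcoA deletion means from 0.4 to 0.5 FPKM and 2 genes lay just outside, from 0.5 to 0.6 FPKM. In the other direction, 2 genes near 0 in the wild type lay from 8 to 10 FPKM in the rcoA deletion. The count of 60 ranged from 37, with at least 20 FPKM asked of the wild type, to 87, with at least 5 FPKM asked. The count of 2 became 1 and 11 under those thresholds.

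**Figure D2:**
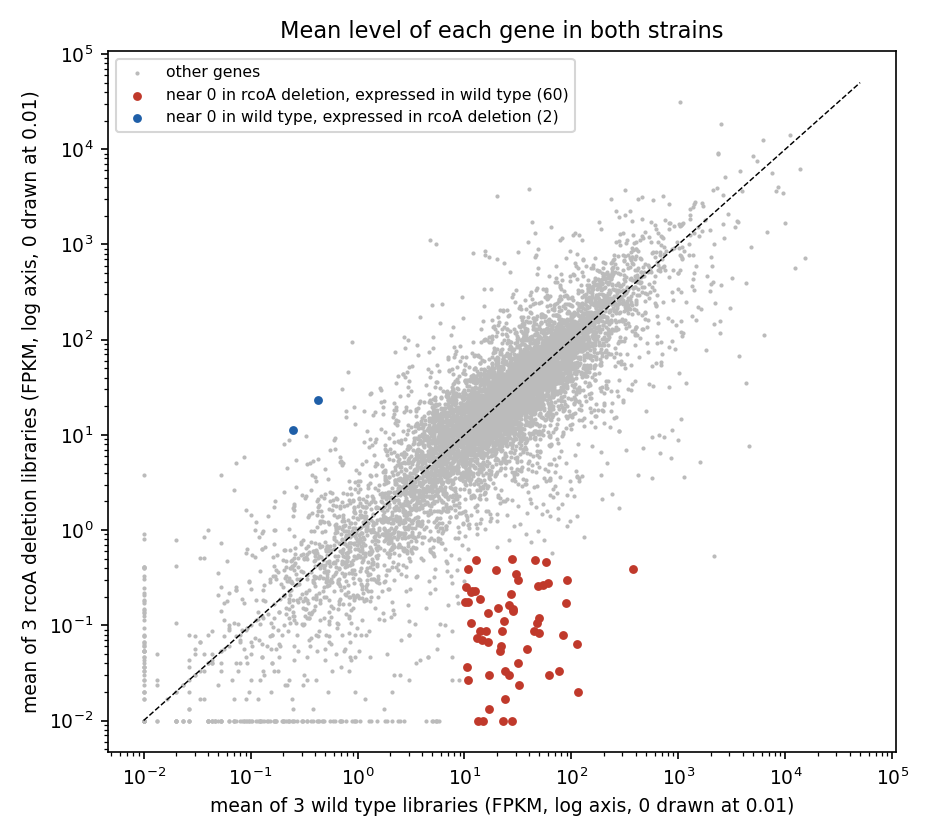
Mean FPKM of each gene in 3 rcoA deletion libraries (vertical, log axis) against 3 wild type libraries (horizontal, log axis), with 0 drawn at 0.01 and equality as a dashed line. The 60 genes near 0 in the rcoA deletion (red) form a group at the lower right, and the 2 genes near 0 in the wild type (blue) stand at the upper left.

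The clrB deletion libraries did not enter the choice of these 60 genes. None of the 60 had a clrB deletion mean under 0.5 FPKM, the lowest being 3.40, and 53 had a mean of at least 10 FPKM. The clrB deletion mean was above the wild type mean in 46 of the 60. In 41 of the 60 clrB deletion replicates 1 and 3 both lay above all wild type libraries, while replicate 2 also did so in only 4 of those 41. No share over all genes is given beside these clrB deletion counts, so they are not read as a trait of the 60. Among wild type libraries, replicate 1 was the lowest in 53 of the 60 genes, against 38% of all tested genes. Without wild type replicate 1 the class again held 60 genes. Its part in the levels was not tested otherwise.

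**Figure D3:**
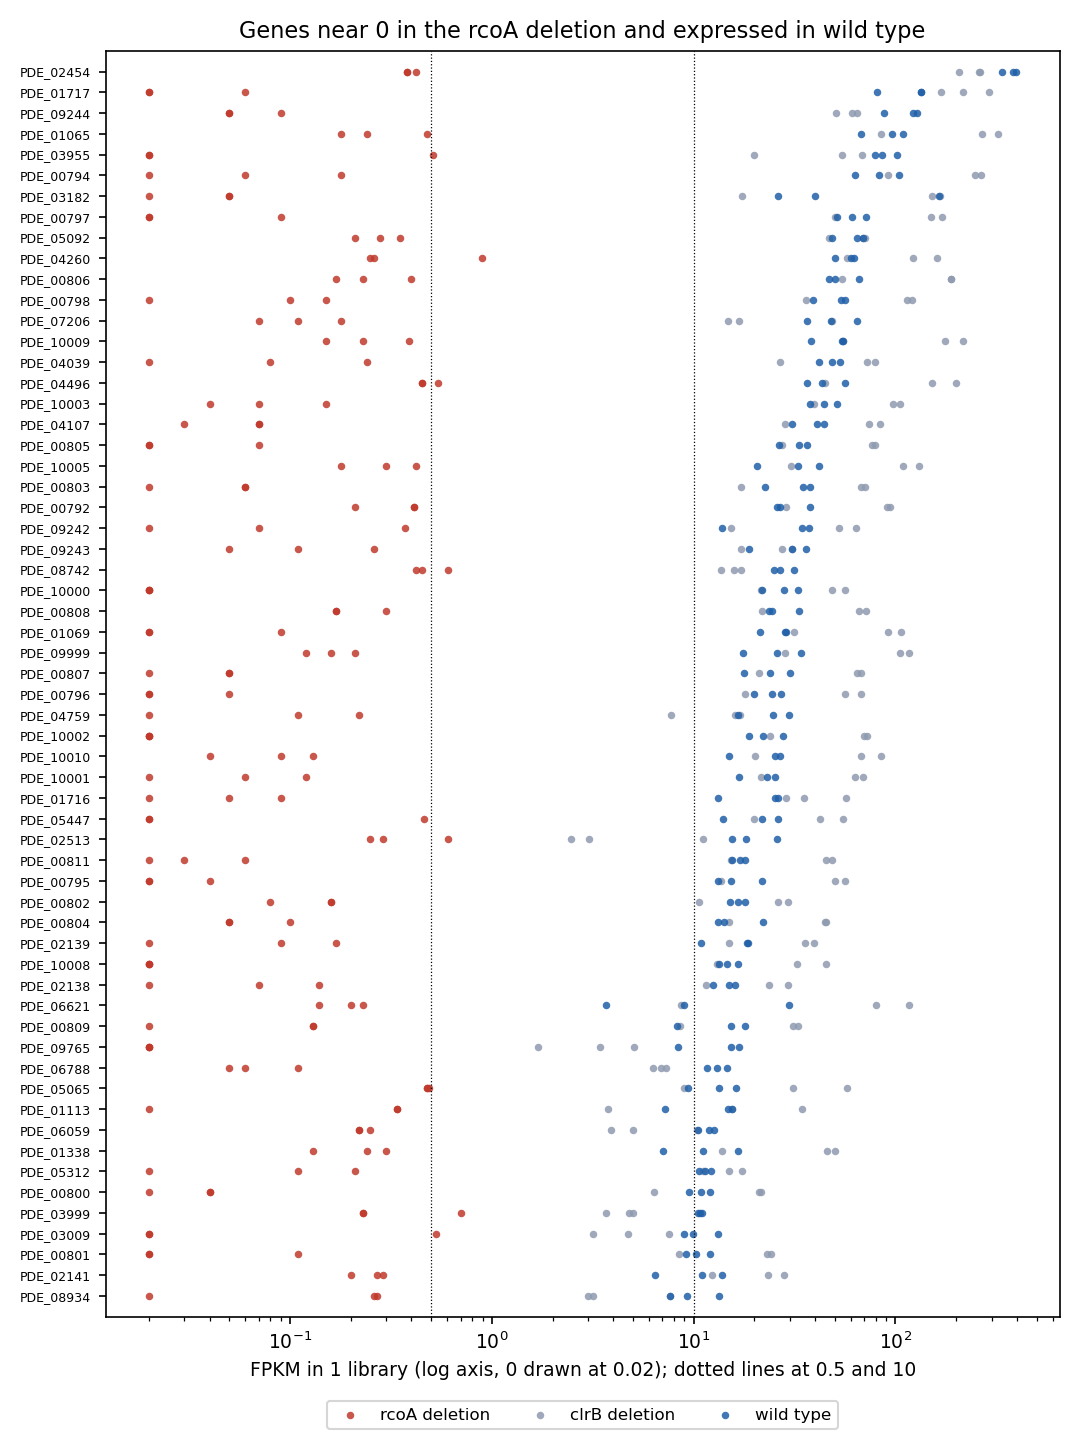
FPKM in each library (horizontal, log axis, 0 drawn at 0.02) for the 60 genes near 0 in the rcoA deletion (rows, ordered by wild type mean), with rcoA deletion libraries in red, clrB deletion in grey and wild type in blue. The red points lie at 0.89 FPKM or less and the blue points at 3.66 FPKM or more. Grey points lie at both ends of the blue ones.

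Of the 60 genes, 30 had an identifier number directly next to that of another member, which is 50%, whereas 0.999% of all genes had a number next to that of a member. Positions on chromosomes were not used here, so neighbours are neighbours in identifier number. When members no more than 2 numbers apart were joined, 4 blocks of at least 3 members held 32 of the 60. This way of joining was chosen after the values were seen. Fungal genes for a secondary metabolite often lie side by side in a cluster that holds a backbone enzyme and the enzymes that modify its product.

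The longest block ran from PDE_00792 to PDE_00811. Of its 20 genes 17 were members, chosen by these values. The 3 others were called lower by limma, as were 34.1% of all tested genes. Summed over the block, FPKM were 7.47, 8.49 and 8.20 in the rcoA deletion libraries, 1616, 493 and 1542 in the clrB deletion libraries, and 482, 704 and 591 in the wild type libraries. Every rcoA deletion sum was below 10, and the lowest wild type sum was 482. The descriptions, which are automated KEGG orthology names, follow a prenylated indole alkaloid pathway known from Aspergillus fumigatus. The genes PDE_00793 and PDE_00810 were described as brevianamide F synthase, a peptide synthetase that joins tryptophan and proline, and these were not members. PDE_00793 read 2.54, 3.37 and 3.21 FPKM in the rcoA deletion, against 11.1, 13.8 and 12.3 in the wild type, 4.07-fold lower. PDE_00810 read 2.47, 2.87 and 2.77 FPKM in the rcoA deletion, against 3.65, 6.34 and 5.04 in the wild type, with the smallest change of the block (log2 change -0.68, SE 0.23, limma adjusted p = 0.0296).

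The modifying enzymes of this block stood closer to 0. PDE_00797, described as a tryptophan prenyltransferase (dimethylallyl group), which attaches a prenyl group to the indole ring, read 0.09, 0 and 0 FPKM in the rcoA deletion, against 51.2, 71.8 and 61.2 in the wild type. PDE_00807, with the same description, read 0, 0.05 and 0.05 FPKM in the rcoA deletion, against 17.8, 29.9 and 23.9 in the wild type. Both genes were thus within 0.09 of 0 in every rcoA deletion library. Verruculogen synthase, which in Aspergillus fumigatus adds an endoperoxide to the alkaloid, was the description of 4 genes of the block. The highest of these, PDE_00794, read 0.18, 0.06 and 0 FPKM in the rcoA deletion, against 62.8, 104 and 83.3 in the wild type. PDE_00808, described as fumitremorgin C synthase, an oxygenase that closes a ring of the alkaloid, read 0.17, 0.30 and 0.17 FPKM in the rcoA deletion, against 23.6, 33.2 and 24.5 in the wild type. Members without a pathway name stood as low, such as PDE_00798 at 0.10, 0 and 0.15 FPKM in the rcoA deletion, against 39.2, 56.1 and 53.6 in the wild type, and PDE_00805 at 0.07, 0 and 0 FPKM in the rcoA deletion, against 26.5, 36.5 and 33.3 in the wild type. The other genes with the verruculogen synthase description, PDE_00792, PDE_00803 and PDE_00806, were at 0.41 FPKM or less in every rcoA deletion library. Where copies of a gene are near-identical, reads may have been split between them, which makes such values less certain. PDE_00799, described as a tetrahydroxynaphthalene reductase among other names, read 0.59, 0.93 and 0.84 FPKM in the rcoA deletion, against 46.7, 62.4 and 57.8 in the wild type, just outside the near-0 threshold.

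A further block ran from PDE_09999 to PDE_10010, with 9 members among 12 genes. The 3 others were called lower, as were 34.1% of all tested genes. Its summed FPKM were 2.44, 2.95 and 3.48 in the rcoA deletion libraries, 1057, 313 and 909 in the clrB deletion libraries, and 242, 374 and 326 in the wild type libraries. The descriptions included enzymes of indole diterpene synthesis. PDE_10000, described as paspaline synthase, was listed at 0 in all 3 rcoA deletion libraries, against 21.8, 33.1 and 27.9 FPKM in the wild type. PDE_10001, described as a geranylgeranyl diphosphate synthase, which supplies the diterpene precursor, read 0.06, 0 and 0.12 FPKM in the rcoA deletion, against 16.8, 25.4 and 23.0 in the wild type. The highest wild type levels of the block were in PDE_10003, described as a fumitremorgin C monooxygenase, with means of 0.09 FPKM in the rcoA deletion and 44.4 FPKM in the wild type, and PDE_10009, described as verruculogen synthase, with means of 0.26 FPKM in the rcoA deletion and 49.0 FPKM in the wild type. PDE_10002 and PDE_10008, the first with several reductase names and the other described as a fumitremorgin C monooxygenase, were also listed at 0 in all rcoA deletion libraries, with wild type means of 23.0 and 14.9 FPKM. The gene described as the hybrid polyketide and peptide synthetase ACE1, PDE_10006, had low values in both strains, at 0.04, 0 and 0.04 FPKM in the rcoA deletion against 1.46, 4.29 and 3.33 in the wild type.

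The shorter blocks were PDE_09242 to PDE_09244 and PDE_02138 to PDE_02141. PDE_09244, described as an O-methyltransferase, is the member of the first with the highest wild type mean, 113 FPKM, and read 0.05, 0.09 and 0.05 FPKM in the rcoA deletion. PDE_09242 and PDE_09243 have no KEGG name and had wild type means of 28.5 and 28.5 FPKM. The other block held a gene described as the polyketide and peptide synthetase of aspyridone, PDE_02141, which read 0.20, 0.27 and 0.29 FPKM in the rcoA deletion and 6.45, 13.8 and 11 in the wild type. Its neighbours PDE_02138 and PDE_02139, described as a desaturase and a methylsterol monooxygenase, were at 0.17 FPKM or less in the rcoA deletion, and PDE_02140, with 4.85, 4.87 and 9.22 FPKM in the rcoA deletion against 33.0, 43.0 and 46.2 in the wild type, was not a member.

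The remaining members stood apart from these blocks or in pairs. PDE_01716 and PDE_01717 are neighbours described as an acetyl-CoA synthetase and as trichodiene synthase, a sesquiterpene cyclase. PDE_01716 read 0.05, 0.02 and 0.09 FPKM in the rcoA deletion, against 13.1, 26.3 and 25.3 in the wild type. PDE_01338, described as brevianamide F synthase, lay outside the long block and read 0.13, 0.24 and 0.30 FPKM in the rcoA deletion, against 7.02, 16.5 and 11.1 in the wild type. PDE_07206, described as averantin hydroxylase, an enzyme of the aflatoxin pathway in Aspergillus, read 0.11, 0.18 and 0.07 FPKM in the rcoA deletion and 64.4, 48.0 and 36.3 in the wild type. It differs from most members in the clrB deletion, where it read 14.8, 48.4 and 16.8 FPKM. PDE_03182, described as a salicylate synthetase, was at 0.05 FPKM or less in the rcoA deletion and varied among wild type libraries, at 26.1, 39.96 and 164 FPKM. PDE_04039, described as ornithine decarboxylase, the first enzyme of polyamine synthesis, read 0, 0.08 and 0.24 FPKM in the rcoA deletion and 42.0, 48.5 and 53.2 in the wild type. A KEGG name was present for 37 of the 60, or 61.7%, near the 58.5% of all genes, so 23 of the 60 are known by identifier alone, among them PDE_01065, PDE_03955, PDE_05092 and PDE_04260 with wild type means of 90.7, 89.0, 60.5 and 57.6 FPKM.

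The genes near 0 in the wild type have no description. PDE_00227 read 14.4, 21.2 and 34.1 FPKM in the rcoA deletion, 3.96, 6.12 and 5.97 in the clrB deletion, and 0.33, 0.64 and 0.32 in the wild type. PDE_03484 read 8.69, 12.1 and 13.2 FPKM in the rcoA deletion, 0.86, 0.42 and 0.33 in the clrB deletion, and 0.25, 0.17 and 0.33 in the wild type. Neither had an rcoA deletion level near the highest wild type levels of the other class.

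Runs of neighbouring identifiers were also sought among all called genes, outside the near-0 rule. A run was at least 4 consecutive numbers that were all called and all changed at least 4-fold in 1 direction, a rule chosen after the values were seen. There were 8 lower runs with 52 genes, of 502 genes lower by at least 4-fold, and 1 higher run with 5 genes, of 293 genes higher by at least 4-fold. The block PDE_09242 to PDE_09244 lay in a lower run of 6 genes that began at PDE_09239. Besides the blocks above, the lower runs were PDE_01064 to PDE_01070, PDE_06879 to PDE_06882 and PDE_09758 to PDE_09761.

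The run PDE_01064 to PDE_01070 held 7 genes, 2 of them in the near-0 class. Its summed FPKM were 3.67, 3.79 and 7.54 in the rcoA deletion libraries, 1091, 316 and 953 in the clrB deletion libraries, and 230, 336 and 313 in the wild type libraries. PDE_01066, described as a cyclic dipeptide prenyltransferase, read 2.15, 2.52 and 5.10 FPKM in the rcoA deletion, against 97.0, 130.1 and 127 in the wild type, and was 36.2-fold lower (log2 change -4.86, SE 0.43, limma adjusted p = 1.33e-05). PDE_01068, described as a salicylate hydroxylase, was 28.1-fold lower, and PDE_01069, described as a sterigmatocystin type O-methyltransferase, was near 0. In each of the 7 genes the rcoA deletion libraries lay below the wild type libraries. The rule that chose the run favours this, and the strains did not overlap in 73.9% of tested genes.

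The run PDE_09758 to PDE_09761 was the most abundant in the wild type and is described by enzymes acting on tyrosine and related aromatic compounds. Summed FPKM were 31.0, 31.1 and 25.2 in the rcoA deletion libraries, against 7208, 7190 and 5381 in the wild type libraries. PDE_09758, described as phenol 2-monooxygenase, read 7.16, 6.22 and 6.07 FPKM in the rcoA deletion and 761, 715 and 551 in the wild type, 104-fold lower. PDE_09759, described as an aromatic amino acid aminotransferase, which removes the amino group of tyrosine, was 110-fold lower, and PDE_09760, described as DOPA dioxygenase, was 78.2-fold lower, both with rcoA deletion libraries at 12.01 FPKM or less. PDE_09761, described as 4-hydroxyphenylpyruvate dioxygenase, the next step of tyrosine breakdown, read 9.88, 8.6 and 4.17 FPKM in the rcoA deletion. The neighbours changed less. PDE_09762, described as an L-lactate dehydrogenase, was 3.03-fold lower and PDE_09757, described as isovaleryl-CoA dehydrogenase, was at 35.4 FPKM in the rcoA deletion and 50.7 FPKM in the wild type on average.

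The higher run, PDE_04127 to PDE_04131, had summed FPKM of 1012, 995 and 852 in the rcoA deletion libraries, against 78.8, 66.5 and 119 in the wild type libraries. PDE_04128, described as a cysteine desulfurase, which takes sulfur from cysteine, read 538, 535 and 476 FPKM in the rcoA deletion and 21.7, 16.3 and 41.4 in the wild type, and was 19.5-fold higher (log2 change 4.34, SE 0.32, limma adjusted p = 4.51e-06). PDE_04127, described among other names as cellobiose dehydrogenase, was 7.01-fold higher, PDE_04129, with the names of the regulators GAL4 and HAP1, 9.77-fold higher, and PDE_04131, described as a sugar symporter, 5.61-fold higher. In the wild type all 5 genes lay below the rcoA deletion libraries, which the rule of the run also favours. This run did not meet the rule without rcoA deletion replicate 1, with a pseudocount of 5 FPKM or with only genes of at least 5 FPKM tested.

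**Figure D4:**
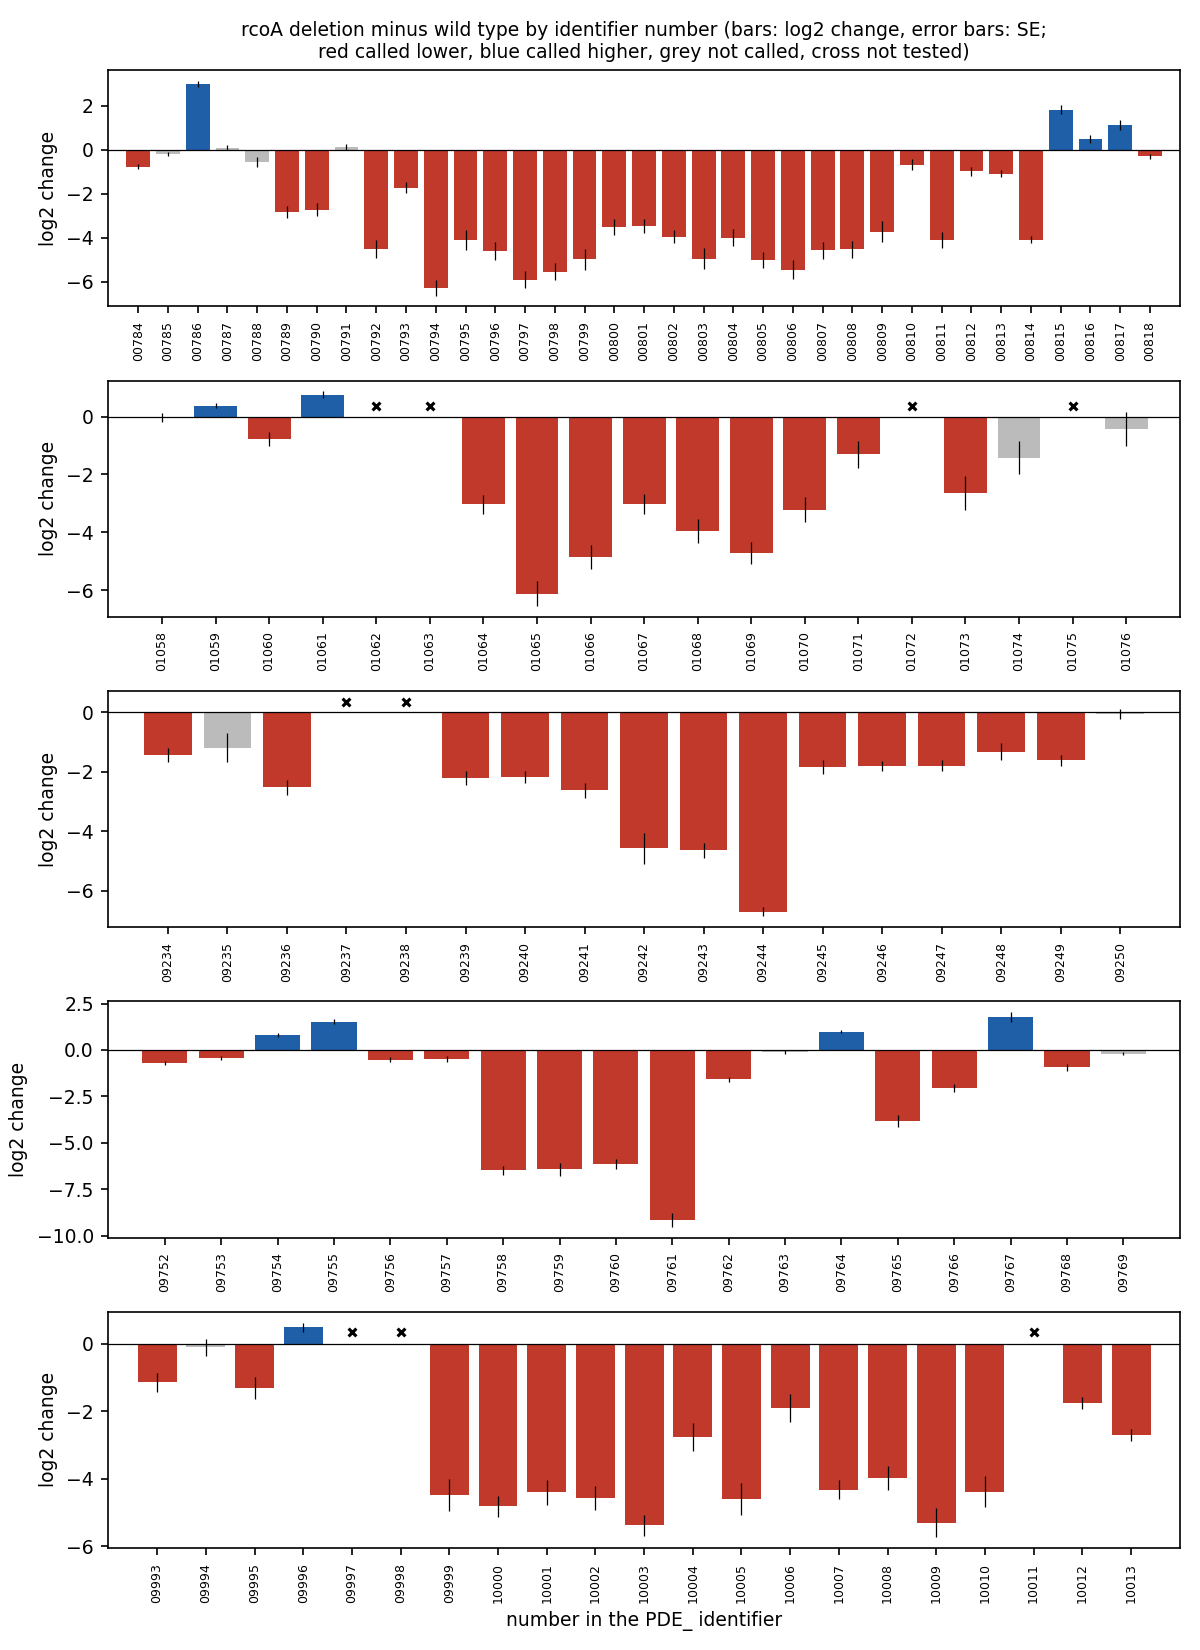
Log2 change, rcoA deletion minus wild type, on the log2(FPKM + 1) scale (vertical axis, error bars SE) for neighbouring identifier numbers (horizontal axis) around 5 of the lower runs and blocks. Red bars were called lower, blue higher and grey not called, and crosses were not tested. The large falls begin at PDE_09758 and end at PDE_09761, with smaller changes on either side, while PDE_09245 to PDE_09249 are lower by less than the run beside them.

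Genes described by the polyketide, peptide and terpene backbone enzymes of secondary metabolism were searched by words in their descriptions, as were the other lists below, all chosen with earlier results of these data known. List members named beyond the called genes with the highest levels were chosen after their values were seen. Of 15 tested backbone genes 8 were lower and 3 higher, 53.3% and 20% against 34.1% and 30.4% of all tested genes. Their median log2 change was -1.09, against -0.04 over all tested genes. The words searched do not find brevianamide F synthase, so PDE_00793, PDE_00810 and PDE_01338 are not among the 15. The 3 higher ones of the 15 were PDE_08874, PDE_04252 and PDE_08810, at log2 changes of 0.34, 0.94 and 1.42. PDE_08874 also carries a peroxin name, and PDE_08810 also carries the name of an NADH dehydrogenase subunit. The call of PDE_08874 was lost without rcoA deletion replicate 3 or without wild type replicate 2. With quantile normalization 6 were higher. PDE_01430, described as trichodiene synthase, was listed at 0 in the rcoA deletion with a wild type mean of 5.82 FPKM. Of 22 genes described as cytochrome P450, oxygenases that often decorate such products, 13 were lower and 5 higher, 59.1% and 22.7%. PDE_01418 was 7.0-fold lower, and PDE_06972, with 1113, 982 and 829 FPKM in the rcoA deletion against 246, 288 and 313 in the wild type, was the most abundant to rise. Of 23 methyltransferases of small molecules 13 were lower and 6 higher, 56.5% and 26.1%, the latter near the 30.4% of all tested genes. PDE_02119, with a sterigmatocystin pathway name, averaged 70.4 FPKM in the rcoA deletion and 327 FPKM in the wild type. The 6 included the ribosomal RNA methyltransferase fibrillarin, PDE_00286, which was at 139 FPKM in the rcoA deletion and 35.5 FPKM in the wild type on average.

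Some genes described by pigment enzymes had large falls. The list of melanin, spore pigment and conidiation had 6 tested members. Of these limma called 4 lower, 66.7% against 34.1% of all tested genes, and 0 higher, and 1 was higher at an unadjusted p under 0.05. The 4 included PDE_00799, which lies in the block from PDE_00792 to PDE_00811. The conidiation regulators BrlA and FlbD were not called, and another gene described as BrlA, PDE_00079, was too low to be tested. BrlA, PDE_00087, averaged 13.1 FPKM in the rcoA deletion and 24.9 FPKM in the wild type, and FlbD, PDE_03008, averaged 272 FPKM in the rcoA deletion and 179 FPKM in the wild type. In both genes the rcoA deletion and wild type libraries did not overlap, which held for 73.9% of tested genes. The SE of BrlA, 0.47, also rests on its clrB deletion libraries, which read 149, 33.4 and 121 FPKM. With trimmed mean factors or equal medians 1 member of this list was called higher. PDE_04495, described as a 3-oxoacyl reductase and numbered beside the scytalone dehydratase gene PDE_04496, read 2.84, 1.43 and 2.84 FPKM in the rcoA deletion against 190, 279 and 253 in the wild type, 102-fold lower. PDE_09491, described as naphtho-gamma-pyrone polyketide synthase, was not called, at 11.1 FPKM in the rcoA deletion and 5.39 FPKM in the wild type on average. Around PDE_08155, which carries that synthase name among others, the numbers PDE_08155 to PDE_08159 were all called lower, as were 34.1% of all tested genes. PDE_08159, with no description, read 2.96, 4.12 and 3.86 FPKM in the rcoA deletion against 1201, 1180 and 1000 in the wild type, 309-fold lower (log2 change -7.93, SE 0.19, limma adjusted p = 1.14e-08). PDE_08156 was 15.6-fold and PDE_08157 16.8-fold lower. PDE_08158 changed by less than 4-fold on the log2(FPKM + 1) scale, so these numbers were not a run by the rule above.

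Breakdown of aromatic amino acids was the list with the greatest share of lower genes among lists of at least 10 tested members. Of 31 tested genes 22 were lower, 71% against 34.1% of all tested genes, and 3 were higher, with a median log2 change of -0.74. In the kynurenine route, which degrades tryptophan, the neighbours PDE_02454 and PDE_02455 both fell. PDE_02454, described as indoleamine 2,3-dioxygenase, the first enzyme of that route, read 0.42, 0.38 and 0.38 FPKM in the rcoA deletion and 384, 397 and 337 in the wild type. PDE_02455, described as kynureninase, averaged 18.5 FPKM in the rcoA deletion and 177 FPKM in the wild type. Another gene with the dioxygenase description moved the other way. PDE_02071 read 211, 225 and 214 FPKM in the rcoA deletion against 31.6, 31.2 and 33.6 in the wild type, and was 6.75-fold higher (log2 change 2.72, SE 0.15, limma adjusted p = 8.96e-07). Of the tyrosine route, the homogentisate dioxygenase gene PDE_08906 was at 31.4 FPKM in the rcoA deletion and 51.1 FPKM in the wild type on average and was called lower, while fumarylacetoacetase, PDE_08907, was not called, at 52.9 FPKM in the rcoA deletion and 68.7 FPKM in the wild type. Numbered close to them, PDE_08904, described as 4-hydroxyphenylpyruvate dioxygenase, was 5.40-fold lower, and maleylacetoacetate isomerase, PDE_08908, was 4.37-fold lower.

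Genes of the citrate cycle, which oxidizes acetyl-CoA in mitochondria, were more often higher than lower. Of 35 tested genes with citrate cycle descriptions 22 were higher, 62.9% against 30.4% of all tested genes, and 5 were lower, with a median log2 change of 0.47. Some of the 35 belong to lysine or leucine synthesis, whose enzymes carry like names. PDE_09135, described as citrate synthase, the entry step of the cycle, averaged 291 FPKM in the rcoA deletion and 59.2 FPKM in the wild type. Aconitase, PDE_08183, averaged 337 FPKM in the rcoA deletion and 144 FPKM in the wild type, and the succinate dehydrogenase flavoprotein PDE_01648 averaged 273 FPKM in the rcoA deletion and 98.1 FPKM in the wild type. The E1 subunit of 2-oxoglutarate dehydrogenase, PDE_08580, was called lower, but 9 of 19 alternative fits lost that call.

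Of 14 tested genes of gluconeogenesis, the glyoxylate cycle and acetate use 5 were higher and 4 lower, shares near those of all tested genes. Phosphoenolpyruvate carboxykinase and fructose-1,6-bisphosphatase, enzymes of gluconeogenesis, the making of glucose from smaller molecules, were both higher. Phosphoenolpyruvate carboxykinase, PDE_08878, read 1136, 1400 and 1274 FPKM in the rcoA deletion against 110, 110 and 134 in the wild type, 10.8-fold higher (log2 change 3.42, SE 0.17, limma adjusted p = 4.19e-07). Fructose-1,6-bisphosphatase, PDE_08481, averaged 342 FPKM in the rcoA deletion and 17.7 FPKM in the wild type. Of the glyoxylate cycle, malate synthase, PDE_03483, was not called, at 125 FPKM in the rcoA deletion and 102 FPKM in the wild type, and the genes described as isocitrate lyase differed. PDE_08297 was lower, at 62.7 FPKM in the rcoA deletion and 168 FPKM in the wild type. PDE_05337, also described as methylisocitrate lyase, was higher, at 31.4 FPKM in the rcoA deletion and 23.9 FPKM in the wild type, and PDE_03451 was not called, at 38.7 FPKM in the rcoA deletion and 32.7 FPKM in the wild type. Alternative oxidase, PDE_08849, which passes electrons to oxygen around part of the respiratory chain, and the alternative NADH dehydrogenase PDE_00751 were the 2 tested members of their list, and both were higher. The oxidase read 652, 1185 and 1173 FPKM in the rcoA deletion against 6.29, 3.04 and 7.04 in the wild type. Of 41 genes of mitochondrial import and ATP synthase 20 were higher and 3 lower. These were 48.8% and 7.32%, against 30.4% and 34.1% of all tested genes.

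Lists of protein synthesis, folding and protection from oxidants had larger shares of higher genes than the 30.4% of all tested genes. Of 162 tested ribosomal protein genes 126 were higher and 9 lower, 77.8% higher, with a median log2 change of 0.91. Of 49 chaperone genes 28 were higher and 9 lower, 57.1% higher. PDE_00624, described as ClpB, a family of disaggregases that resolve protein aggregates together with Hsp70, read 648, 830 and 822 FPKM in the rcoA deletion against 13.7, 16.1 and 17.1 in the wild type, 49.0-fold higher (log2 change 5.52, SE 0.15, limma adjusted p = 2.39e-08). Besides PDE_02505, the HSP20 family gene PDE_00175 averaged 3733 FPKM in the rcoA deletion and 313 FPKM in the wild type. An Hsp70 gene, PDE_02379, averaged 2249 FPKM in the rcoA deletion and 263 FPKM in the wild type, and the exchange factor Fes1, PDE_01090, was 43.5-fold higher. Of 38 antioxidant genes 17 were higher and 5 lower, 44.7% higher. A thioredoxin, PDE_07626, averaged 142 FPKM in the rcoA deletion and 20.7 FPKM in the wild type, and glutathione reductase, PDE_00554, 258 FPKM in the rcoA deletion and 103 FPKM in the wild type. Nitric oxide dioxygenase, PDE_01345, a flavohemoprotein that detoxifies nitric oxide, read 1344, 1871 and 1902 FPKM in the rcoA deletion and 50.3, 32.1 and 47.3 in the wild type, 39.5-fold higher. Of 30 genes of trehalose, glycogen and polyol metabolism 16 were higher and 2 lower, with the glycerol-3-phosphate dehydrogenase PDE_06831 at 178 FPKM in the rcoA deletion and 56.7 FPKM in the wild type, and the mannitol dehydrogenase PDE_01389 at 116 FPKM in the rcoA deletion and 22.5 FPKM in the wild type.

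Transporter lists are read against the 34.1% lower and 30.4% higher of all tested genes. Of 66 tested genes for amino acids, ammonium, nitrate and peptides 35 were lower and 11 higher, 53% and 16.7%, with a median log2 change of -0.59. The peptide transporter PDE_05534 read 173, 209 and 249 FPKM in the rcoA deletion, against 1521, 1563 and 1850 in the wild type. The amino acid permease PDE_01802 averaged 80.1 FPKM in the rcoA deletion and 939 FPKM in the wild type, whereas the ammonium transporter PDE_03587 averaged 36.3 FPKM in the rcoA deletion and 5.53 FPKM in the wild type. Of 60 sugar transporters 26 were lower and 14 higher. The most abundant lower one, PDE_09377, averaged 1770 FPKM in the rcoA deletion and 3503 FPKM in the wild type. PDE_03475 read 297, 379 and 337 FPKM in the rcoA deletion against 10.03, 12.6 and 22.5 in the wild type, 22.4-fold higher, with no overlap (log2 change 4.47, SE 1.06, limma adjusted p = 0.00495). Of 90 other transporters of the major facilitator superfamily 47 were lower and 22 higher, and PDE_02513, described as a phosphate transporter, was near 0 in the rcoA deletion at 0.25, 0.29 and 0.61 FPKM, against 15.5, 18.2 and 25.9 in the wild type. Of 35 ABC transporters, pumps driven by ATP, 13 were higher and 10 lower. PDE_06680, described as the multidrug pump SNQ2, averaged 28.8 FPKM in the rcoA deletion and 235 FPKM in the wild type. PDE_03575 and PDE_04300, also described as SNQ2, were higher. They averaged 41.6 and 46.2 FPKM in the rcoA deletion, against 2.37 and 2.90 FPKM in the wild type.

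Metal transport had single large changes. Of 18 iron uptake genes 11 were lower and 5 higher, 61.1% lower against 34.1% of all tested genes. Ferric-chelate reductase PDE_03360, which reduces iron at the cell surface, averaged 2.13 FPKM in the rcoA deletion and 41.2 FPKM in the wild type. L-ornithine N5-oxygenase, PDE_04073, the first enzyme of siderophore synthesis, averaged 48.1 FPKM in the rcoA deletion and 9.92 FPKM in the wild type. Tested genes described as siderophore transporters went both ways. PDE_00592 averaged 35.4 FPKM in the rcoA deletion and 2.27 FPKM in the wild type, and PDE_04184 was also higher. PDE_03373 averaged 47.2 FPKM in the rcoA deletion and 94.5 FPKM in the wild type. PDE_01095, PDE_06096 and PDE_08762 were also lower, and PDE_01177 was not called. Of 26 genes for zinc, copper and manganese 11 were lower and 7 higher. PDE_05715, described as a zinc transporter, read 868, 1155 and 1154 FPKM in the rcoA deletion against 34.3, 37.8 and 44.8 in the wild type, 27.2-fold higher (log2 change 4.73, SE 0.20, limma adjusted p = 1.55e-07). Of 6 laccases and multicopper oxidases 3 were lower and 1 higher.

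Of 26 chitinases, which cut chitin in the fungal cell wall, 13 were lower and 4 higher, 50% and 15.4% against 34.1% and 30.4% of all tested genes, and the lower ones included PDE_06419 at 503, 506 and 505 FPKM in the rcoA deletion against 959, 962 and 1039 in the wild type. PDE_01573, given above, was the most abundant chitinase among the higher ones. Of 19 genes found by the words for chitin and glucan synthesis 7 were higher and 6 lower, shares near those of all tested genes. PDE_06441, whose names include glucan endo-1,3-beta-glucosidase, averaged 2634 FPKM in the rcoA deletion and 823 FPKM in the wild type. The chitin synthase PDE_08046 averaged 65.8 FPKM in the rcoA deletion and 10.3 FPKM in the wild type, and the chitin synthase PDE_05710 13.01 FPKM in the rcoA deletion and 47.1 FPKM in the wild type. Of 59 lipases, cutinases and carboxylesterases 23 were lower and 18 higher. The cutinases, esterases that cut the plant cuticle, went both ways: PDE_07475 read 460, 376 and 456 FPKM in the rcoA deletion against 1075, 1414 and 1624 in the wild type, and PDE_04915 read 2868, 2828 and 4015 FPKM in the rcoA deletion against 21.7, 16.4 and 22.0 in the wild type. Of 46 secreted peptidases 20 were lower and 10 higher, and the metalloprotease deuterolysin, PDE_07936, averaged 2784 FPKM in the rcoA deletion and 1435 FPKM in the wild type. Its higher call was lost without rcoA deletion replicate 1 and without wild type replicate 1 or 2.

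Sulfur metabolism held a gene with a large fall, beside a neighbour without a description that also fell. Of 25 tested genes 10 were higher and 6 lower, 40% and 24% against 30.4% and 34.1% of all tested genes, with a median log2 change of 0.20. PDE_04106, described as cystathionine gamma-synthase, an enzyme of methionine synthesis, was 90.3-fold lower, at 2.13 FPKM in the rcoA deletion and 193 FPKM in the wild type on average. Its neighbour PDE_04107 has no description and was near 0 in the rcoA deletion, at 0.07, 0.03 and 0.07 FPKM against 30.7, 44.3 and 41.0 in the wild type. Another gene described as cystathionine gamma-synthase, PDE_01503, was not called, at 18.64 FPKM in the rcoA deletion and 17.15 FPKM in the wild type on average. A sulfate permease, PDE_00892, read 348, 484 and 496 FPKM in the rcoA deletion against 76.0, 62.9 and 76.0 in the wild type, 6.19-fold higher. Of 86 genes of fatty acid oxidation and the peroxisome 36 were lower and 19 higher, of 28 for branched-chain amino acid and propionate breakdown 10 were lower and 11 higher, of 21 autophagy genes 8 were lower and 2 higher, and of 13 ergosterol genes 1 was lower and 4 higher.

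**Figure D5:**
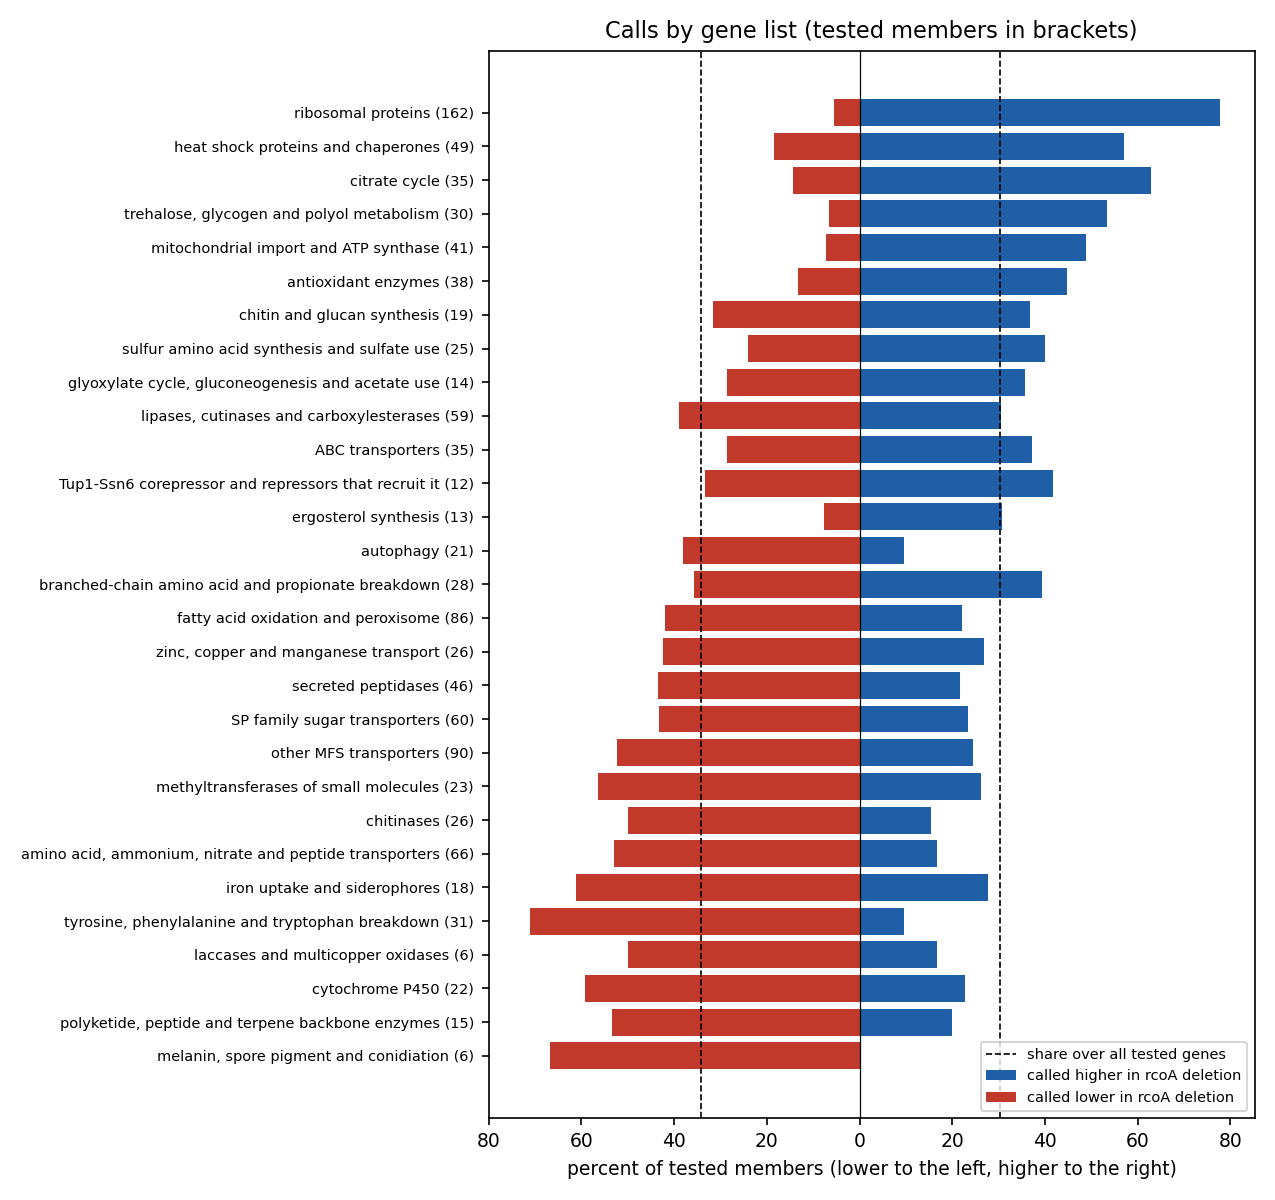
Share of the tested members of each gene list with at least 6 of them (percent, horizontal axis) called higher in the rcoA deletion (blue, to the right) or lower (red, to the left), with lists ordered by median log2 change and the number tested in brackets. Dashed lines mark 30.4% higher and 34.1% lower over all tested genes. Ribosomal proteins reach 77.8% higher, and breakdown of aromatic amino acids reaches 71% lower.

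Of 12 tested genes described as TUP1 or as CreA/MIG, repressors that recruit the corepressor in yeast, 5 were higher and 4 lower. Against 30.4% and 34.1% of all tested genes, these were 41.7% and 33.3% of the 12. The lower ones include PDE_01024, for which the labels do not say whether it is the deleted gene. Some of the 12 also carry other names. Among those with the CreA/MIG description, the carbon catabolite repressor gene PDE_03168 read 754, 778 and 785.01 FPKM in the rcoA deletion against 352, 350 and 303 in the wild type, 2.31-fold higher, and PDE_08282 averaged 1.35 FPKM in the rcoA deletion and 5.52 FPKM in the wild type. No gene described as Ssn6 or Cyc8 was found by the words searched. Of the pheromone receptors, PDE_02077 was 2.10-fold higher. Of 2 genes described as zinc cluster transcription factors limma called 0 higher, also at an unadjusted p under 0.05, and PDE_04246 was lower with a call lost under 10 of 19 alternative fits. The other had 30.0 FPKM in the rcoA deletion and 30.6 FPKM in the wild type on average.

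The largest differences of mean FPKM were mostly in genes without a clear role. PDE_04519, whose KEGG name is a tRNA pseudouridine synthase, read 35329, 29919 and 29195 FPKM in the rcoA deletion against 1267, 860 and 979 in the wild type, 30.4-fold higher (log2 change 4.94, SE 0.22, limma adjusted p = 2.18e-07). A putative lysozyme, PDE_03296, an enzyme that cuts bacterial walls, read 14388, 18498 and 22504 FPKM in the rcoA deletion against 2454, 2175 and 2802 in the wild type, 7.45-fold higher. The genes PDE_03279, PDE_02721 and PDE_07202, without a description, were 3.93-fold, 3.78-fold and 2.00-fold higher. PDE_09832 read 414, 484 and 1285 FPKM in the rcoA deletion against 13477, 14506 and 17772 in the wild type, 21.0-fold lower. PDE_01252 read 1584, 1642 and 1771 FPKM in the rcoA deletion against 10175, 9459 and 9969 in the wild type, 5.92-fold lower, and PDE_05881 and PDE_09166 were 2.74-fold and 2.21-fold lower. The neighbours PDE_00508 and PDE_00509 were 55.2-fold and 21.9-fold lower, and in both rcoA deletion replicate 1 was the highest and replicate 3 the lowest of its strain, at 1035, 494 and 169 FPKM for PDE_00509 against 13275, 12540 and 11417 in the wild type. In all of these genes the libraries of both strains did not overlap, which held for 73.9% of tested genes.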

How the data were processed

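Per the column headers, the deposited table held FPKM, which the authors had computed before deposit. According to the labels, oligo(dT)-selected RNA was made into NlaIII and MmeI tag libraries read to 35 bp. Neither aligner nor counting nor build is given in the sources used here. Per-library columns not used numbered 3. No pair of libraries was identical (0 pairs). Gene names are the table's automated KEGG and nr descriptions. The reference table in hand, of 9964 genes, holds 0 of the 9907 identifiers, so no coordinates or sequences are shown.

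In R 4.3.3, limma 3.58.1 was fitted to log2(FPKM + 1) with an intensity trend and 1 mean per strain, over 9 libraries, for genes with a mean of at least 1 FPKM. Adjusted p are Benjamini-Hochberg over all tested genes, and the fit was tested on simulated data. Folds are ratios of mean FPKM where both means reach 1 FPKM.

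Members and lists were chosen with earlier results of these data known. Named by rule were TUP1 genes, the 10 largest rises and falls (means reaching 1 FPKM in both strains and 10 FPKM in either), members of the near-0 classes and their runs, the most abundant called genes of each list in each direction, and the 6 largest differences each way, of which those that carry a result are given. A list of heterokaryon incompatibility words matched 0 genes, and one of G protein words matched other proteins, so both were set aside.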

Additional observations from a re-analysis of the deposited data

How the results depend on the processing

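The call counts stayed within 1.5 times their value, and 0 calls turned direction, in all 19 alternative fits of pseudocount, filter, scaling, libraries, trend and replicate block. Asking for a change of at least 2-fold left 1101 higher and 1358 lower genes. Leaving out 1 library gave 2399 to 3002 higher and 2719 to 3391 lower genes. The most calls, 3002 and 3391, came without clrB deletion replicate 2. With the rcoA deletion and wild type libraries only, 2942 genes were higher and 3287 lower. The replicate numbers did not pair the samples, since deviations of same-numbered rcoA deletion and wild type libraries correlated at 0.016, -0.069 and -0.012, and the replicate block gave 2748 higher and 3055 lower genes.

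The 60 genes near 0 in the rcoA deletion numbered 37 with at least 20 FPKM asked of the wild type, and 57 to 60 without 1 library. The 2 genes near 0 in the wild type numbered 0 with near 0 set under 0.2 FPKM, 9 with it under 1 FPKM, 11 and 1 with at least 5 and 20 FPKM asked of the rcoA deletion, 0 when every library had to pass, and 2 to 3 without 1 library. Changes of at least 16-fold, 36 higher and 111 lower, were 61 and 191 with a pseudocount of 0.1 FPKM and 24 and 44 with 5 FPKM. Lower runs of identifiers numbered 4 in place of 8 with a pseudocount of 5 FPKM, and higher runs 2 with 0.1 FPKM. Of 132 named genes called, 122 kept the call in every alternative fit. The causes were not tested.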

Other observations

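The lower run PDE_06879 to PDE_06882 had low levels in both strains apart from its first gene. PDE_06879, described as a tripeptidyl-peptidase, an enzyme that cuts proteins, read 6.75, 5.74 and 7.77 FPKM in the rcoA deletion, against 44.4, 56.6 and 52.9 FPKM in the wild type, 7.59-fold lower. PDE_06881, with a sterigmatocystin pathway methyltransferase name, read 0.09, 0 and 0.22 FPKM in the rcoA deletion, against 3.34, 4.21 and 10.3 FPKM in the wild type. In both genes the libraries of the strains did not overlap, which the rule of the run favours.

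Beside the block PDE_09242 to PDE_09244, the next 5 numbers were also called lower, as were 34.1% of all tested genes, with smaller log2 changes than the block. On its other side, the run PDE_09239 to PDE_09244 held 3 genes that were not members. One of them, PDE_09239, described as a tetrahydroxynaphthalene reductase, averaged 0.32 FPKM in the rcoA deletion and 5.19 FPKM in the wild type. PDE_09246, without a description, was listed at 0 in all rcoA deletion libraries, against 2.43, 2.65 and 2.40 FPKM in the wild type. PDE_09249, described as a mannosidase that trims N-linked sugars, read 19.1, 19.4 and 19.0 FPKM in the rcoA deletion, against 60.2, 67.6 and 56.3 FPKM in the wild type, 3.20-fold lower (log2 change -1.62, SE 0.19, limma adjusted p = 8.15e-05). These genes lie outside the near-0 class and were chosen after their values were seen.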
